A study of Mus musculus with 14 samples.

Results

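The 10 genes described here are those of sphingosine 1-phosphate (S1P) signalling, the 5 receptors S1pr1 to S1pr5, the kinases Sphk1 and Sphk2, the lyase Sgpl1, the phosphatase Sgpp1 and the exporter Spns2. They were taken by name from a table of 35271 Ensembl genes, and all 10 were found. The table gives expression in 14 single cells labelled as glomerular mesangial cells, from 1 male wild-type mouse aged 8 weeks, of strain C57BL/6 in the series design (C56BL/6 in the sample labels). Glomeruli were isolated with magnetic beads and dissociated with enzymes, and each cell was captured, lysed and turned into cDNA in its own chamber of a Fluidigm C1. The cells form 1 group without treatment, so no groups were compared, and 14 cells of 1 animal are not biological replicates. Cell names such as GL_M_30 are the sample titles.

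S1P is a lysophospholipid that cells make by phosphorylating sphingosine and that acts mainly from outside the cell, on G protein-coupled receptors. Sphingosine kinases make it, Spns2 carries it out, phosphatases return it to sphingosine and the lyase cleaves it for good. In contractile perivascular cells such as the mesangial cells of the glomerulus, S1P receptors that couple to Gi, Gq and G12/13 are known to act on calcium and contraction, and loss of SGPL1 in people causes a kidney disease with nephrotic syndrome.

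Expression is given as RPKM, the read count scaled to the length of the gene and to the reads of the cell, so values of different genes can be compared per length. A gene was called detected in a cell at an RPKM of at least 1. Read totals recovered from the steps of the values ran from 6.60 M to 23.8 M reads per cell, with a median of 9.75 M, and 1770 to 5277 genes were detected per cell. All 8 mesangial marker genes examined were detected in at least 12 cells, and every cell had 6 to 8 of them at an RPKM of at least 10. GL_M_30 stood apart with 10 of 13 endothelial markers at 10 or more (0 to 5 elsewhere), and GL_M_55 with 5 of 12 podocyte markers (0 to 2 elsewhere).

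The results turn on S1pr3, the receptor above 0 in every cell, on S1pr5, the receptor listed at 0 in every cell, and on Sgpl1, the enzyme detected in most cells. The 250 bases before the RefSeq start of each are shown to set the regions where their transcripts begin side by side, 5′ to 3′ in the direction of the gene, on GRCm38.p6. Capitals mark the letters GATA, the core of the site of GATA factors, and GGGCGG, the GC box, on either strand. TATAAA and CCAAT were also searched on both strands and had no match in these 3 windows, and no matches overlapped.
S1pr3, chr13:51408368-51408617, plus strand: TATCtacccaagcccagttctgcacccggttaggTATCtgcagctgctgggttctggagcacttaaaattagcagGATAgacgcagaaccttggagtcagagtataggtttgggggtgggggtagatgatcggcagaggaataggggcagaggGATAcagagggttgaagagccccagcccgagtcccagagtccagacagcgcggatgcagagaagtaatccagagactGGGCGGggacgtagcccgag
S1pr5, chr9:21248444-21248693, minus strand: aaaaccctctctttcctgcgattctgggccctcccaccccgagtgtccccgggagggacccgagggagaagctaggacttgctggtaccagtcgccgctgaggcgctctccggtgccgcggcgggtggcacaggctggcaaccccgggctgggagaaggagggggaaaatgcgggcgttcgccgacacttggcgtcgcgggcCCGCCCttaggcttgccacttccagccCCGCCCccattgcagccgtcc
Sgpl1, chr10:61147685-61147934, minus strand: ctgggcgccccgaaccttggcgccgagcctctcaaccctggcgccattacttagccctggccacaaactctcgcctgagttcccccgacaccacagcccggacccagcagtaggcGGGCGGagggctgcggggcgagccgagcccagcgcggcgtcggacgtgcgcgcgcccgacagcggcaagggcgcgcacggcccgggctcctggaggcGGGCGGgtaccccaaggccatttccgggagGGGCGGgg

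The S1pr3 window held 4 matches to GATA and 1 to GGGCGG. At least 1 GATA match was present in 53.6% of 32851 RefSeq windows of the same length, and 4 or more in 3.52%. The windows of S1pr5 and Sgpl1 had 0 GATA matches, and 2 and 3 matches to GGGCGG. This GC box was present in 32.7% of all windows, and 3 or more matches in 8.47%. The 3 windows also differed in base composition, with 9 CpG dinucleotides and 56.4% G or C for S1pr3, 22 and 69.2% for S1pr5 and 31 and 74.8% for Sgpl1, against medians of 6 and 52.4% over all windows. These matches describe letters only, and factor binding was not measured. Of the 10 genes 9 had a RefSeq entry for this region.

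Of the 10 genes 7 were detected in at least 1 cell. The same limit was met by 29.2% of all genes and by 41.8% of protein-coding genes, the class of all 10. The genes not detected were S1pr2, S1pr5 and Spns2. The median gene of the 10 was detected in 1.5 cells, and the median protein-coding gene in 0. The median of the highest RPKM was 5.42 over the 10 genes and 0.0633 over protein-coding genes. A cell had 2 of the 10 genes detected at the median, with 1 in GL_M_51, GL_M_55 and GL_M_75 and 4 in GL_M_36 and GL_M_47. The colour plot of all 10 genes by cell shows 2 well-filled lines, S1pr3 and Sgpl1, and scattered single cells for the rest.

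**Figure D1:**
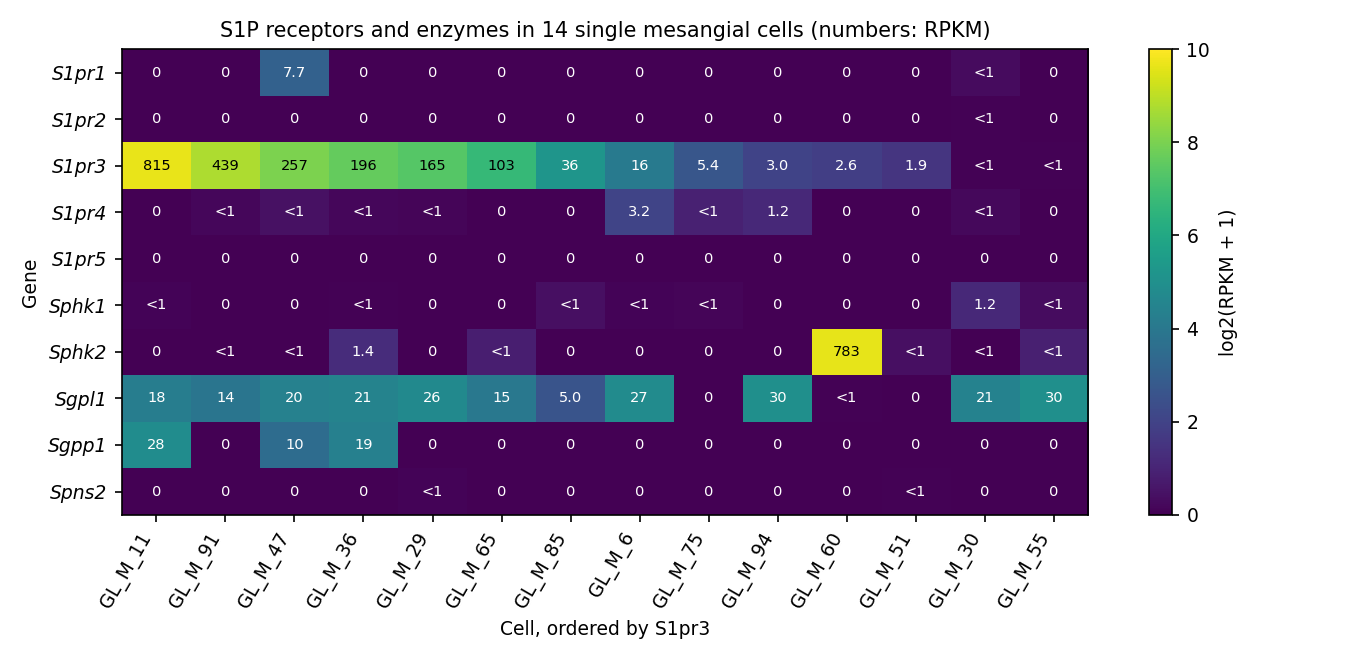
Level of the 10 S1P genes (vertical axis) in each of the 14 cells (horizontal axis, ordered by S1pr3), coloured by log2(RPKM + 1) and with the RPKM printed in each square (values under 1 as <1). S1pr3 is detected in 12 cells and Sgpl1 in 11, while Sphk2 is high in GL_M_60 only, at 783.

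S1pr3, the receptor that couples to Gi, Gq and G12/13, made up most of the S1P receptor RPKM of these cells. It was detected in 12 of 14 cells (85.7%, Clopper-Pearson 95% interval 57.2% to 98.2%) and at an RPKM of at least 10 in 8. It was highest in GL_M_11, at 815, followed by GL_M_91 at 439, GL_M_47 at 257, GL_M_36 at 196, GL_M_29 at 165 and GL_M_65 at 103. GL_M_85 had 35.8 and GL_M_6 had 16.1. The lowest cells with a detected transcript were GL_M_75 at 5.44, GL_M_94 at 2.99, GL_M_60 at 2.62 and GL_M_51 at 1.91. In GL_M_30 it was at 0.0350 and in GL_M_55 at 0.0294.

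The cells thus formed a graded series over 427-fold among those with a detected transcript, with a median of 26.0 over all 14, and a gap below the lowest of them. The values of GL_M_51, GL_M_60, GL_M_75 and GL_M_94 rested on about 103 to 280 reads each, and those of GL_M_30 and GL_M_55 on about 2 and 1. On the scale of log2(RPKM + 1) the level was 4.69 ± 3.34 (mean ± SD over 14 cells of 1 mouse). The 3 highest cells held 74.1% of the S1pr3 RPKM of all cells. Over the 14 cells r between S1pr3 on the log2 scale and the log2 read total was -0.02, and rho was 0.06. With the log2 number of genes detected, r was 0.29 and rho was 0.20. The part of depth or of the number of genes detected in these levels was not tested.

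Detection in 12 or more cells was met by 1.45% of all genes and 2.19% of protein-coding genes, and a value above 0 in all 14 cells by 2.96% and 4.54%. Among the 193 genes detected in exactly 12 cells, S1pr3 varied more between cells than most. Its SD of log2 RPKM over the cells where it was detected was 3.13, against a median of 2.35, and 169 of these genes had a smaller SD. Its highest value, 815, lay near the median highest value of these genes, 690.

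S1pr3 (ENSMUSG00000067586) lies on chromosome 13 from 51408639 to 51422797 on the plus strand of GRCm38 and has 1 annotated transcript in GENCODE M21. None of its 50-base stretches occurs, on either strand, in the transcripts of another gene, so its count is not split with a near-identical copy. An annotated noncoding transcript, Gm32834, overlaps its exons on the opposite strand, by less than 50 bases in a row, and is not in the table. The sources used here do not say whether reads were counted by strand.

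The other receptors were low or undetected. S1pr1, the Gi-coupled receptor best known from endothelial cells and lymphocyte egress, was detected in GL_M_47 alone, at 7.67 from about 293 reads. It was at 0.233 in GL_M_30, about 9 reads, and listed at 0 in the other 12 cells. GL_M_47 had 4 of 13 endothelial markers at an RPKM of at least 10 and a summed RPKM of 2075 over them. Esam had its highest value there, 1272, while Cdh5, the cadherin of endothelial junctions, and Egfl7 were at 0. GL_M_30, the cell with the most endothelial transcripts, had Cdh5 at 12.7, Egfl7 at 1199 and Esam at 0, with S1pr1 below 1. The part of endothelial transcripts in these S1pr1 values was not tested.

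S1pr4, a receptor known mainly from blood cells, was detected in GL_M_6 at 3.16 and in GL_M_94 at 1.20, which are about 61 and 22 reads. It was at 0.889 in GL_M_75 and 0.368 in GL_M_47, lay between 0.0906 and 0.164 in GL_M_29, GL_M_30, GL_M_36 and GL_M_91, and was listed at 0 in the other 6 cells. The pan-leukocyte marker Ptprc was at 0 in 13 cells and reached 0.0172 in GL_M_91, and 9 of 12 leukocyte markers were not detected in any cell. The other 3 were the T cell gene Cd3d and the B cell gene Ms4a1, whose highest values, 5.62 and 1.93, were in GL_M_6, the cell with the highest S1pr4, and Fcer1g, at 923 in GL_M_85, where S1pr4 was at 0. The whole list summed to 7.55 in GL_M_6 and 1.91 in GL_M_94, against 0.0317 to 926 in the other 12 cells. The part of leukocyte transcripts in the S1pr4 value was not tested.

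S1pr2, which couples to Gi, Gq and G12/13 as S1pr3 does, was above 0 in GL_M_30 alone, at 0.0279, about 3 reads. S1pr5, known from natural killer cells and oligodendrocytes, was listed at 0 throughout, and 0 of 14 leaves room for detection in up to 23.2% of such cells. For S1pr5, 3 reads correspond to an RPKM of 0.0504 in the deepest cell and 0.182 in the shallowest. The floor of 3 reads was a chosen setting, and values from about 1 read were listed for other genes, such as S1pr3 in GL_M_55. The floors concern read counts only and the intervals the sampling of cells only, and all 14 cells came from 1 mouse.

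Of the RPKM summed over the 5 receptors and 14 cells, 99.3% was S1pr3, 0.385% S1pr1 and 0.299% S1pr4. S1pr3 had the highest receptor value in 13 cells, and GL_M_30, where no receptor reached an RPKM of 1, was the exception. GL_M_55, counted among the 13, also had no receptor detected, with S1pr3 at 0.0294 from about 1 read. Where another receptor was detected, its level was below that of S1pr3. S1pr3 made up 97.0% of the receptor RPKM in GL_M_47, beside S1pr1, and 83.6% in GL_M_6 and 71.4% in GL_M_94, beside S1pr4.

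**Figure D2:**
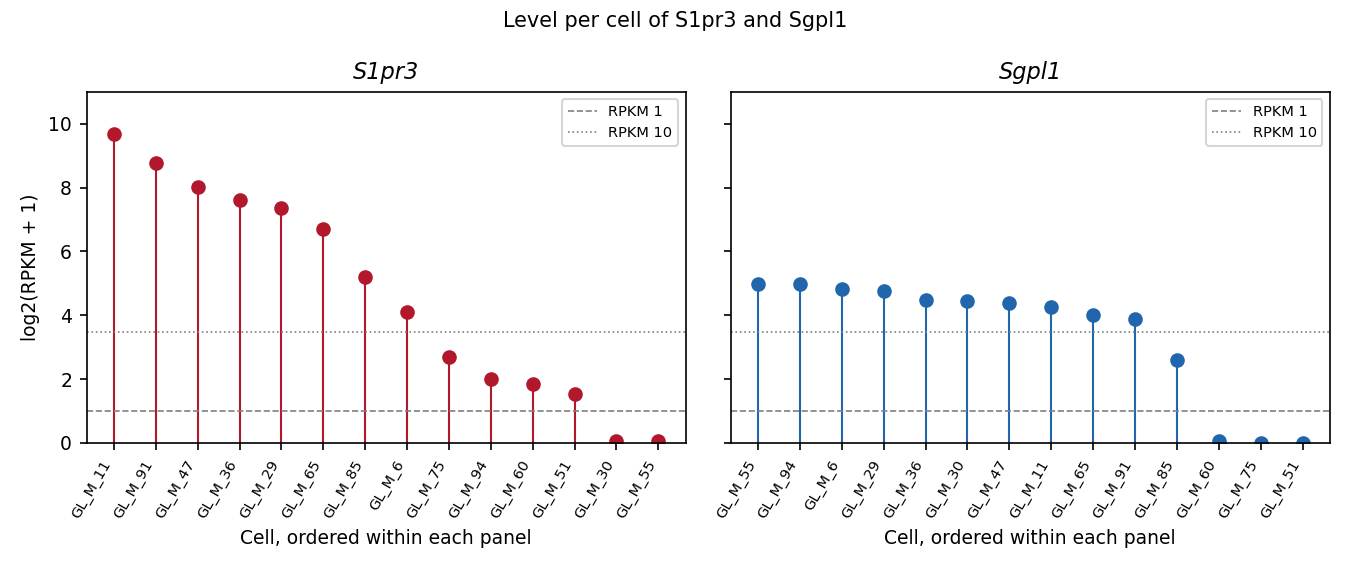
Level of S1pr3 (left) and Sgpl1 (right) in each cell as log2(RPKM + 1), 1 point per cell, ordered within each panel, with lines at an RPKM of 1 and 10. S1pr3 declines in steps from 815 to below 1, while Sgpl1 stays between 5.05 and 30.4 in 11 cells and is near 0 in 3.

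The genes next in pattern to S1pr3, ranked by r of log2(RPKM + 1) over the 14 cells among 3375 genes detected in at least 5 cells, were Slc48a1, a heme transporter (r = 0.88), Anxa5, annexin A5 (0.83), Dgkb, a diacylglycerol kinase (0.83), St3gal6, a sialyltransferase (0.82), and the antisense transcript 1700034H15Rik (0.78). Slc48a1 was detected in 6 cells and reached 836, Anxa5 in 9 with up to 2227, Dgkb in 9 with up to 477 and St3gal6 in 9 with up to 1114. The transcript 1700034H15Rik stayed at 3.53 or below. With Spearman's rho in place of r, and likewise without GL_M_30 and GL_M_55, 2 of these 5 stayed among the nearest 5. All values come from the same 14 libraries, and the ranking is a description of these cells.

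The enzymes that make S1P were detected in few cells. A kinase was detected in 3 of 14 cells (21.4%, interval 4.66% to 50.8%), and 0 cells had both. Sphk1, the mainly cytosolic kinase induced by growth factors, was at 1.24 in GL_M_30 from about 24 reads and at 0.320 or below in the other 13 cells, 7 of which were at 0. Sphk2, the kinase found also in the nucleus and mitochondria, was at 783 in GL_M_60, which held 99.6% of its RPKM over all cells. It was at 1.40 in GL_M_36, between 0.312 and 0.826 in GL_M_51, GL_M_55 and GL_M_65, at 0.0263 or below in GL_M_30, GL_M_47 and GL_M_91, and at 0 in 6.

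The high Sphk2 cell thus exceeded the next by 559-fold. Sphk2 (ENSMUSG00000057342, chromosome 7 from 45709467 to 45718002, minus) overlaps exons of the ribosomal protein gene Rpl18 at 1 end and of the circadian transcription factor gene Dbp at the other, both on the opposite strand, and 18.3% of its 50-base stretches occur in transcripts of other genes. Rpl18 too was highest in GL_M_60, at an RPKM of 472, against at most 115 in the other cells, while Dbp was at 0.0347 there. Without strand, reads of overlapping exons cannot be assigned to either gene, and the part of Rpl18 in the Sphk2 value was not tested. In GL_M_51, which had Rpl18 at 95.2, Sphk2 was at 0.312, and in GL_M_47, with Rpl18 at 115, it was at 0.0263.

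Sphk1 (ENSMUSG00000061878, chromosome 11 from 116530925 to 116536674, plus) has 16 annotated transcripts and is overlapped by the antisense transcript Gm29292. The number of cells with a kinase depended on the limit more than any other count. It was 1 at an RPKM of at least 5, 7 at 3 or more recovered reads and 12 for any value above 0.

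Sgpl1, the lyase of the endoplasmic reticulum that cleaves S1P, was the most widely detected S1P enzyme and had a narrow range of levels where it was detected. It was detected in 11 of 14 cells (78.6%, interval 49.2% to 95.3%), a breadth of 11 or more cells that 2.04% of all genes and 3.1% of protein-coding genes reached. It was highest in GL_M_55 at 30.4, GL_M_94 at 30.2, GL_M_6 at 27.0 and GL_M_29 at 25.9. GL_M_36 had 21.4, GL_M_30 had 20.6, GL_M_47 had 19.9 and GL_M_11 had 18.0. GL_M_65 was at 15.1, GL_M_91 at 13.6 and GL_M_85 at 5.05. It was at 0.0499 in GL_M_60 and listed at 0 in GL_M_51 and GL_M_75.

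The 11 cells thus lay within 6.02-fold of each other, with a mean RPKM of 20.7 ± 7.65 (SD, 11 cells), and the remaining 3 cells were at or near 0. Of these 3, GL_M_60 at 23.8 M reads and GL_M_51 at 19.0 M were the most deeply sequenced of all cells and GL_M_75 at 6.60 M the shallowest. GL_M_60 had the fewest genes detected of all cells, 1770, GL_M_51 had 1894 and GL_M_75 had 3419, against a median of 2847. Over the 14 cells r between Sgpl1 and the read total, both on the log2 scale, was -0.42 and rho was -0.41. With the log2 number of genes detected, r was 0.38 and rho was 0.23. The part of depth or of the number of genes detected in the Sgpl1 values was not tested. Each of the 11 detected values rested on at least about 318 reads.

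A comparison chosen after these values were seen set this spread beside the 211 genes detected in exactly 11 cells. The SD of log2 RPKM over the detected cells was 0.74 for Sgpl1, against a median of 2.43, and 2 of the 211 genes had a smaller SD. The median fold range of these genes was 192, and 5 had a smaller range than Sgpl1. The highest value of Sgpl1 was also low for such a widely detected gene, 30.4 against a median highest value of 576, and 15 of the 211 genes had a lower one. The SD counts only cells at an RPKM of at least 1, so a low highest value limits it, and the 15 genes with a lower highest value than Sgpl1 had SDs of 0.62 to 1.29, with a median of 1.14. Among the 1276 genes detected in 9 or more cells, 28 had a smaller SD.

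**Figure D3:**
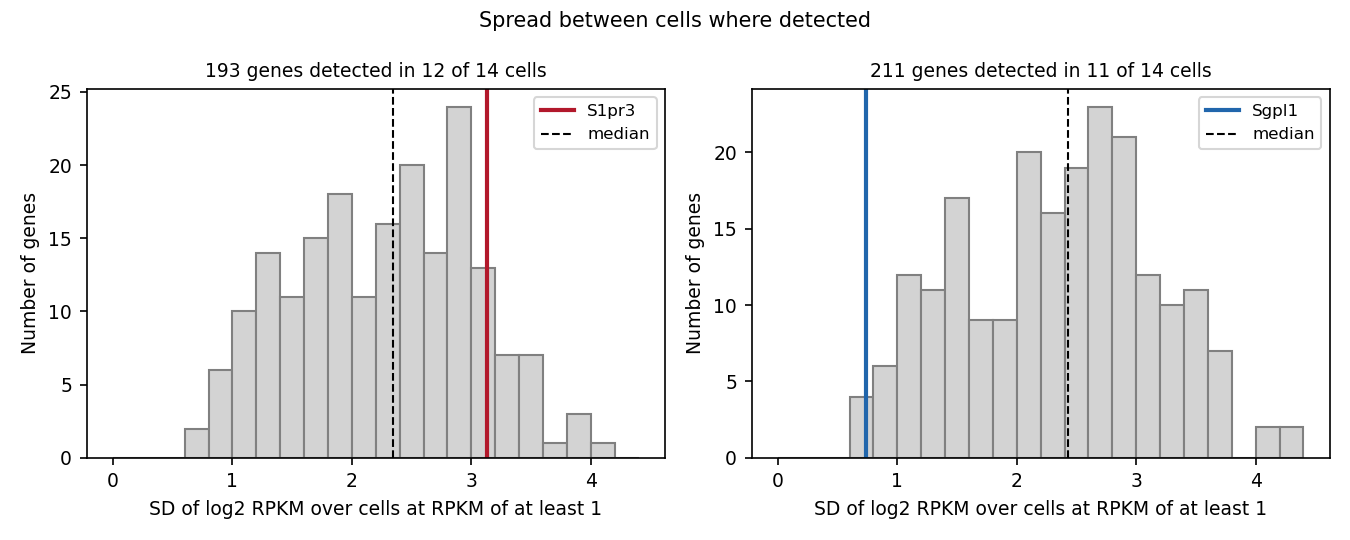
Number of genes (vertical axis) by the SD of log2 RPKM over the cells where a gene was detected (horizontal axis), for the 193 genes detected in 12 cells with S1pr3 marked (left) and the 211 genes detected in 11 cells with Sgpl1 marked (right). Dashed lines are medians. S1pr3, at 3.13, lies above its median of 2.35, and Sgpl1, at 0.74, lies at the lower edge below its median of 2.43.

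Sgpl1 (ENSMUSG00000020097) lies on chromosome 10 from 61098642 to 61147703, minus, with 10 annotated transcripts, and shares 0.446% of its 50-base stretches with other genes. A microRNA gene, Gm44308, lies in an intron. The genes nearest in pattern were Gm3839 (r = 0.82), Smco1 (0.81), the small GTPase gene Cdc42 (0.79), the zinc finger gene Zbtb44 (0.79) and Trp53rka (0.79). With Spearman's rho 1 of the 5 stayed among the nearest 5, and Gm3839 and Trp53rka share 59.8% and 35.6% of their sequence with other genes.

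Sgpp1, the S1P phosphatase of the endoplasmic reticulum, was on in 3 cells and listed at 0 in the other 11. It was at 27.7 in GL_M_11, 19.5 in GL_M_36 and 10.5 in GL_M_47. These 3 cells were among the 4 with the highest S1pr3, and all 3 also had Sgpl1 detected. GL_M_36 and GL_M_47 were the cells with the most genes detected, 5277 and 4842, and the part of that breadth in the Sgpp1 values was not tested. GL_M_11, with 2846 genes, was close to the median of 2847. Spns2, the S1P exporter known from endothelium, was at 0.0788 in GL_M_29 and 0.0383 in GL_M_51, about 3 reads each, and listed at 0 in 12 cells.

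Read by cell, 9 of 14 had both S1pr3 and Sgpl1 detected (64.3%, interval 35.1% to 87.2%), 3 had S1pr3 without Sgpl1, 2 had Sgpl1 without S1pr3 and 0 had neither. The 3 cells with a receptor but no lyase were GL_M_51, GL_M_60 and GL_M_75, where S1pr3 was low, at 1.91 to 5.44. GL_M_94 had a similar S1pr3 level, 2.99, with Sgpl1 at 30.2. Over all 14 cells r between the log2 levels of S1pr3 and Sgpl1 was 0.32 and Spearman's rho -0.07, so the signs differ. A receptor and a kinase were detected together in GL_M_36 and GL_M_60.

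The 2 cells with S1pr3 below 1 had the highest sum of 1 marker list each, GL_M_30 of the endothelial and GL_M_55 of the podocyte list. GL_M_30 had a summed RPKM of 4128 over the 13 endothelial markers, against 8.34 to 2075 in the 12 cells with S1pr3. The 2075 was in GL_M_47, where S1pr3 was at 257 and Esam alone gave 1272 of that sum. GL_M_55 had 2178 over the 12 podocyte markers, against 0.427 to 516 in those cells, with the podocyte factor Wt1 at 612.5. GL_M_55 had 33.1 over the endothelial list and GL_M_30 80.2 over the podocyte list. Wt1 was also high in cells with S1pr3, at 347 in GL_M_6, 447 in GL_M_29 and 262 in GL_M_47. Clic3 and Plce1 of the podocyte list were at 0 in every cell, and Sox17 of the endothelial list stayed below 1 throughout.

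Mesangial markers were present in both of these cells, with 6 of 8 at 10 or more in GL_M_30 and 7 of 8 in GL_M_55. Their summed RPKM was 6981 and 9035, against 7086 to 23018 in the 12 cells with S1pr3. Itga8 was at 509 and 622 in them. Below 10 were Pdgfrb and Des in GL_M_30 and Agtr1a in GL_M_55. Gata3 had its lowest value of all cells, 2518, in GL_M_30, and was at 7490 in GL_M_55. The smooth muscle and renin list summed to at most 6.85 in them and at most 109 elsewhere, with Ren1 and Lmod1 at 0 in every cell. The part of these other cell type transcripts in the absence of S1pr3 was not tested.

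**Figure D4:**
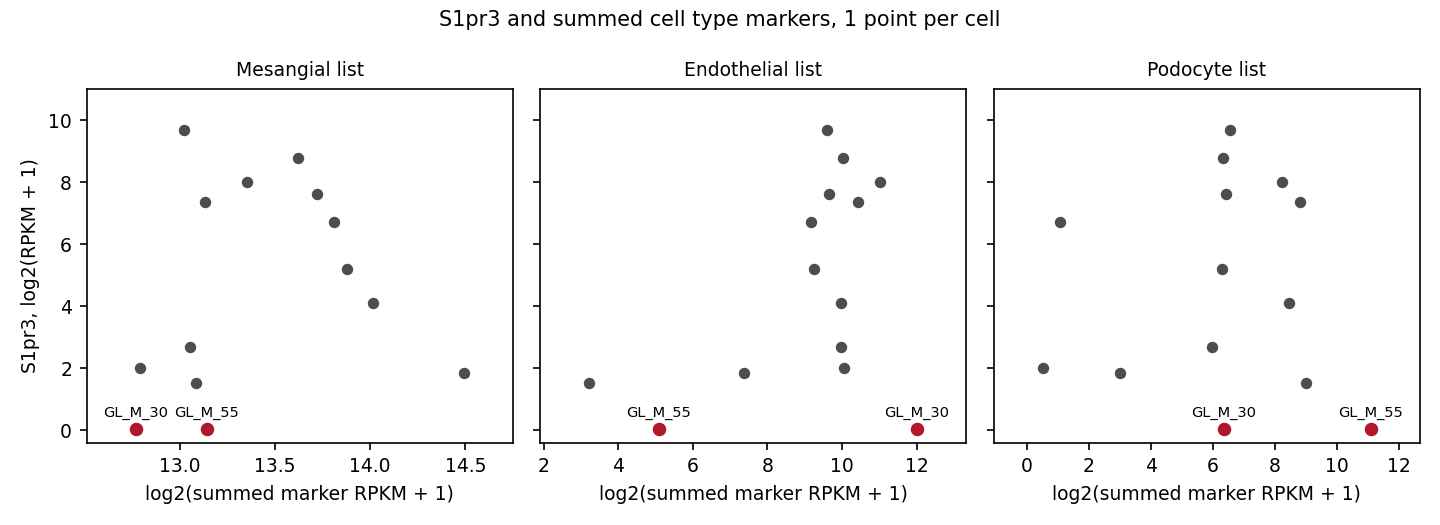
S1pr3 as log2(RPKM + 1) (vertical axis) against the log2 of the summed RPKM + 1 of the mesangial, endothelial and podocyte marker lists (horizontal axes), 1 point per cell. The red points are GL_M_30, with the highest endothelial sum (4128), and GL_M_55, with the highest podocyte sum (2178), both with S1pr3 below 1.

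Around these genes, 57 of 76 other genes of the pathway were detected in at least 1 cell, at a median of 3 cells. In 11 or more cells, 7 of them were detected. Of all protein-coding genes, 41.8% were detected in at least 1 cell and 3.1% in 11 or more. Of 12 further genes for handling S1P, 9 were detected, each in 5 cells or fewer. Abcc1, a transporter that can export S1P, was detected in 5 cells with up to 16.4 in GL_M_36. Plpp1, a surface lipid phosphatase, was detected in 5 with up to 1738 in GL_M_30, and Abcg2, another transporter, in 5 with up to 438 in GL_M_11. Plpp1 shares 23.1% of its sequence with other genes. Mfsd2a and Apom, the S1P carrier of plasma lipoproteins, were listed at 0 in every cell, and Sgpp2, the other S1P phosphatase, stayed below 1.

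The genes that supply ceramide and sphingosine were on in changing subsets of cells, with 16 of 23 detected. Sptssa, the small subunit of serine palmitoyltransferase, was detected in 11 cells, with a median RPKM of 46.4 and up to 1397 in GL_M_60. Acer2, the Golgi ceramidase, was above 0 in all 14 cells and detected in 9, with a median of 1.52 and up to 116 in GL_M_51. Cers4, a ceramide synthase, was detected in 8 with up to 349. The 6 members Sptlc3, Sptssb, Ormdl2, Cers1, Cers3 and Asah2, were listed at 0 in all 14 cells, although Ormdl2 shares 60.6% and Cers1 41.8% of their sequence with other genes, so their zeros are uncertain. Degs2 stayed below 1.

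Of 13 sphingomyelin and glycosphingolipid genes 12 were detected, Gba2 being the exception. Sgms2, the sphingomyelin synthase of the plasma membrane, was above 0 in all 14 cells and detected in 12, with a median of only 2.98 and up to 265 in GL_M_30. Samd8, its relative in the endoplasmic reticulum, was detected in 8 with up to 180, and Psap, the precursor of the saposins, in 6 with up to 58.4.

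Of the transducers downstream of the receptors, the median G protein subunit was detected in 4 cells and the median effector in 3. The ceramide and sphingomyelin lists also had medians of 3 cells. All 7 G protein alpha subunits of the list were detected. Gnai2, a Gi subunit, was detected in 12 cells with a median RPKM of 41.1 and up to 893, Gnaq, the Gq subunit, in 9 with a median of 3.92, and Gna11, its close relative, in 5. Of 14 effectors and arrestins 12 were detected, and Plcb1 and Arrb2 were not. Rhoa, the GTPase that G12/13 signalling activates, was detected in all 14 cells, from 4.94 to 1244, and Rac1 and the kinase gene Rock2 in 12 each, with medians of 96.3 and 73.3. Rac1 shares 50.3% of its sequence with other genes. Rock2 reached only 185, in GL_M_36.

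The receptors of lysophosphatidic acid, a related lysophospholipid, form the neighbouring receptor family. Of 6 receptors and the producing enzyme Enpp2, 1 was detected, Lpar4, in 4 cells with up to 921 in GL_M_60. Lpar1, Lpar2, Lpar3 and Lpar5 were listed at 0 in all 14 cells and Lpar6 reached 0.976. Both families thus had a single receptor at an RPKM of at least 10 in these cells, S1pr3 in 8 cells and Lpar4 in 2.

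**Figure D5:**
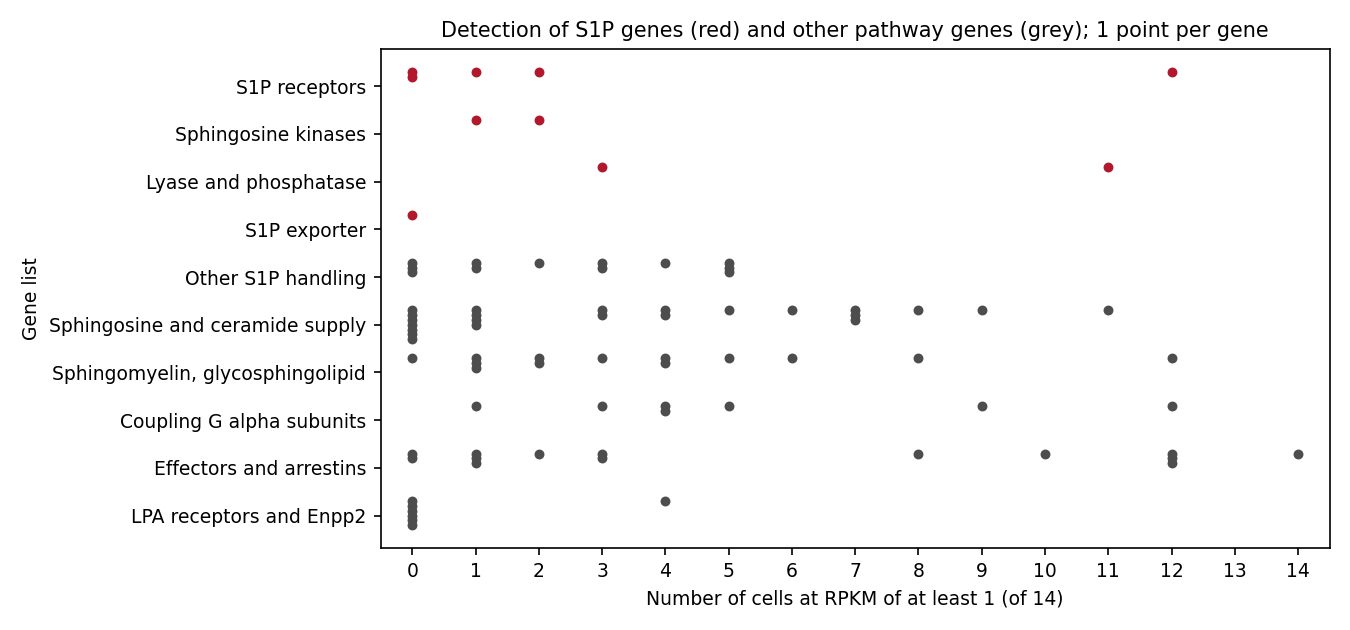
Number of cells of 14 in which each gene was at an RPKM of at least 1 (horizontal axis), 1 point per gene, by list (vertical axis), with the 10 S1P genes in red and the 76 other pathway genes in grey. S1pr3 at 12 cells and Sgpl1 at 11 stand apart from the other 8 S1P genes, at 0 to 3 cells.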

How the data were processed

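Single mesangial cells were profiled by RNA-seq, 1 library per cell. The authors deposited 1 table of RPKM values, with a column per cell, all 14 of which matched a cell title. Per the submitters' processing notes, TopHat2 2.0.12, HTSeq 0.6.1 and the build mm10 were used, in roles that the notes leave out. Not given in the sources used here are the annotation release, the strandedness, how multi-mapped reads were treated and whether cells were filtered.

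Of 35271 Ensembl IDs 34488 matched a symbol. Positions, exon lengths and overlaps came from GENCODE M21 (GRCm38, the same assembly as mm10), and upstream sequences those of RefSeq on GRCm38.p6. Read totals were recovered by finding, at genes with 1 annotated transcript, the total that makes low values whole reads. In each cell 84.8% to 89.7% of values below 50 reads came within 0.02 of a whole number. Reads per value are estimates, from an annotated length that gave whole reads for S1pr4 and Spns2. For S1pr3, Sphk1 and Sphk2 they came from the gene's own smallest step. For S1pr1, S1pr2, S1pr5, Sgpl1 and Sgpp1 whole reads were not obtained. The exon length was used for these, so their reads and floors are less certain. At these depths 3 reads on 1 kb equal an RPKM of 0.126 to 0.455. Both this recovery and the ranking by similarity were tested on simulated data. These held only whole reads for the recovery, and close copies of S1pr3 among shuffled genes for the ranking. Neither test thus covers values that are not whole or genes that share libraries. Shared sequence is the share of a gene's 50-base stretches found, on either strand, in transcripts of other genes.

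Log2 levels were computed from the deposited RPKM after adding a pseudocount of 1. With 1 animal, no p-value was computed. SDs describe cells. The named genes were the 10 S1P genes, the 3 most widely detected genes of each pathway list, undetected ones, and the 5 nearest in pattern to the most widely detected receptor and enzyme. Other names, such as marker genes given beside a value, were chosen after values were seen. The S1P genes and all lists were chosen with earlier results of these data known. Other detection limits, TPM scaling, and the cells without GL_M_30 and GL_M_55 or without GL_M_36 and GL_M_47, a pseudocount of 0.1, ranking by Spearman's rho and no filter on low values were tried. For the Sgpl1 spread alone, the cells without GL_M_85 were tried too. Python 3.11.15, numpy 2.4.6, pandas 2.3.3 and scipy 1.17.1 were used.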

Additional observations from a re-analysis of the deposited data

How the results depend on the processing

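The count of cells with a kinase, 3 at an RPKM of at least 1, was 1 at 5 or more, 1 at 10 or more, 5 at a TPM of at least 1, 7 at 3 or more recovered reads and 12 for any value above 0. The number of S1P genes detected fell from 7 to 4 at 10 or more, and the median number per cell rose from 2 to 4 for any value above 0. The other counts of cells and genes stayed within 1.5 times under every limit tried, as did all of them under both omissions of cells, and the S1pr3 share of receptor RPKM stayed between 99.3% and 99.6%. The nearest genes were less stable. Of the 5 for S1pr3, 2 were shared with Spearman's rho and 2 without GL_M_30 and GL_M_55. Of the 5 for Sgpl1, 1 was shared with Spearman's rho, 2 with a pseudocount of 0.1 and 2 without GL_M_30 and GL_M_55. The cause was not tested. The share of genes with a smaller spread than Sgpl1 was 0.948%. It was 2.19% among genes detected in 9 or more cells and 1.09% without GL_M_30 and GL_M_55. Without GL_M_85 it was 0% of 236 genes, with the SD of Sgpl1 at 0.40 in place of 0.74. All of these settings were chosen, like the comparison, after seeing the data. No paired analysis was possible because the cells form 1 group.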

Other observations

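Some genes, chosen after their values were seen, ran opposite to the S1P genes over the 14 cells. The lowest r with S1pr3 on the log2(RPKM + 1) scale belonged to Pfn1, the actin-binding protein profilin 1 (-0.76), detected in 11 cells with up to 2337, Rbm5, a splicing regulator (-0.69), and Eif3a, a translation initiation factor subunit (-0.67). The lowest with Sgpl1 belonged to Mrpl30, a mitochondrial ribosomal protein (-0.90), Fgf1, a fibroblast growth factor (-0.89), and Daam2, a formin (-0.88). Spearman's rho with Sgpl1 was weaker, at -0.52 for Mrpl30, -0.64 for Fgf1 and -0.68 for Daam2. With S1pr3, rho was -0.80 for Pfn1, -0.67 for Rbm5 and -0.70 for Eif3a. Genes were ranked by r among 3375 genes over 14 cells that share their libraries, and the ranks describe these cells only.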
